A study of Homo sapiens with 6 samples.

Results

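Osteopontin, the secreted glycoprotein encoded by SPP1, and the genes of its main cell surface receptors were followed in HCT116 cells, an established human colorectal cancer line, after knockdown of PRSS22. Members were the rows of the deposited count table whose symbol is SPP1, CD44, ITGAV, ITGA5, ITGB1, ITGB5 or ITGB6, and all 7 were found among 17269 genes. The 2 groups were 3 libraries labelled shCtrl, whose genotype field reads WT, and 3 libraries labelled shPRSS22, with the genotype PRSS22 knockdown. The labels give neither the hairpin, the vector, the time after its introduction nor whether a group was 1 culture or several, and no treatment was named. The set was put together because SPP1 was already known to be higher in shPRSS22 in this comparison. Its values and fold changes are therefore given as a description, without p-values.

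Osteopontin is an acidic, heavily phosphorylated protein of bone, epithelia and activated macrophages. It carries an RGD motif, which integrins pairing the alpha-v chain (ITGAV) with beta-1, beta-3, beta-5 or beta-6, and the alpha-5 beta-1 integrin, can bind, and it also engages CD44, otherwise the main receptor for hyaluronan. Integrins work only as pairs of 1 alpha and 1 beta chain, so each chain can limit what reaches the surface. In colorectal tumours osteopontin is known as a product of both cancer cells and macrophages and has been linked to spread.

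Library totals were between 14920523 and 15466647 estimated counts, and TMM factors lay between 0.991 and 1.01. PRSS22 itself, the targeted serine protease, stood at 9.86 ± 0.416 CPM in shCtrl and 2.95 ± 0.296 CPM in shPRSS22 (SD, n = 3), lower in every knockdown library (log2 fold change -1.74, edgeR quasi-likelihood test, adjusted p = 4.78e-12). CPM is the count per 1000000 of the TMM-scaled library. Of 11 listed epithelial and colorectal markers, the summed level was 4102 to 4282 CPM in shCtrl and 4036 to 4305 CPM in shPRSS22. It was carried by the keratins KRT8, KRT18 and KRT19 with EPCAM and CDH1. Of the 6 tested, CDH1 alone was called, higher in shPRSS22 (log2 fold change 0.15, edgeR adjusted p = 9.01e-04). Its means were 290.6 ± 2.67 CPM in shCtrl and 321.4 ± 12.2 CPM in shPRSS22. CDX2, a marker of the intestinal lineage, stood at 9.70 ± 0.963 CPM in shCtrl and 9.94 ± 0.775 CPM in shPRSS22. VIL1, CDH17, LGR5, CEACAM5 and CEACAM6, other markers of that lineage, were each under 0.5 CPM on average over the 6 libraries. The library shPRSS22 replicate 1 stood apart in that it held 23 VIL1 and 22 CEACAM5 estimated counts, against 0 to 10 and 1 to 5 in the other libraries.

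The sequence before the SPP1 start is shown because transcription factors described as acting on the SPP1 promoter in various cells are taken up further on. Whether any of them acts on it in these cells was not tested. The RefSeq promoter table (GRCh38.p14) held at least 1 window for each of the 7 genes. The 250 bases before the annotated start lie on the plus strand at chr4:87975464-87975713. Capitals mark the only match in them to the motifs searched on both strands, AACCACA, the core bound by RUNX factors, whose first base is at position -143 from the start.

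SPP1: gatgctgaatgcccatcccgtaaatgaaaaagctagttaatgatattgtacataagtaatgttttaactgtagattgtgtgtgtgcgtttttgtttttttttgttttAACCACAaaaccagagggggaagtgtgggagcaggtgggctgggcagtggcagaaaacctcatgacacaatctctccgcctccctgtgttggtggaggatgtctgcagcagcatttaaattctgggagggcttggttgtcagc

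That RUNX core occurred in 4.27% of all 35116 promoter windows of the same 300 bases. The antioxidant element core TGACNNNGC occurred in 13.3% of windows and in windows of CD44, ITGB1 and ITGB5. The GC box GGGCGG occurred in 45% of windows and in those of CD44, ITGA5, ITGB1 and ITGB5. The TCF core CTTTGA (12.9% of windows) and the E-box CACGTG (7.26%) occurred in no member's window. A match is a run of letters, not a measured binding site. For comparison with SPP1, a stretch before the CD44 start (plus strand, chr11:35139045-35139083) holds an antioxidant core match on the other strand, with the matching letters in capitals.

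CD44: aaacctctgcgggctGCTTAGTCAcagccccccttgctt

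The ligand SPP1 was the member with the largest difference. SPP1 (Entrez 6696, chromosome 4 from 87975714 to 87983411, plus strand, GRCh38.p14) had 69, 53 and 54 estimated counts in shCtrl replicates 1 to 3. It had 179, 176 and 229 in shPRSS22 replicates 1 to 3. All knockdown libraries lay above all control libraries, and replicate 3 was the highest. In CPM the values were 4.61, 3.50 and 3.57 in shCtrl and 11.5, 11.6 and 14.96 in shPRSS22. Group means were 3.89 ± 0.620 and 12.7 ± 1.97 CPM (SD, n = 3), a log2 fold change of 1.70 (SE 0.135, 95% interval 1.43 to 1.98), or 3.25-fold. Among 13104 genes tested, 12 had a larger log2 fold change. Without shPRSS22 replicate 1, the library with the intestinal marker counts, the log2 fold change was 1.77, and without replicate 3, the library with the most SPP1, it was 1.57. In such bulk libraries a larger share of SPP1-positive cells and more SPP1 RNA per cell cannot be told apart.

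CD44, a transmembrane glycoprotein that binds hyaluronan and osteopontin, was lower in the knockdown. The shCtrl libraries held 899, 912 and 884 CPM, in the order of their numbers, and the shPRSS22 libraries 735, 743 and 725 CPM. Every control lay above every knockdown library. The means were 898.6 ± 14.1 and 734.1 ± 9.15 CPM, a log2 fold change of -0.29 (SE 0.033, 95% interval -0.36 to -0.22), which is 1.22-fold lower. CD44 (Entrez 960, chromosome 11 from 35139171 to 35232402) was the 124th most abundant gene by mean CPM, with 11094 to 13818 estimated counts per library. It has 26 protein-coding transcript models in GENCODE release 29, and the table sums them into 1 row, so standard and variant forms cannot be told apart here.

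Of the alpha chains, ITGAV stayed level and ITGA5 was higher in the knockdown. ITGAV (Entrez 3685, chromosome 2 from 186590056 to 186680901), the alpha-v chain shared by most RGD-binding integrins, had 176, 184 and 187 CPM in shCtrl and 188, 174 and 184 CPM in shPRSS22. The groups overlapped, and the log2 fold change was 0.00024 with a 95% interval from -0.07 to 0.07. ITGA5 (Entrez 3678, chromosome 12 from 54395261 to 54419266), the alpha-5 chain of the classical fibronectin receptor, had 141, 146 and 142 CPM in shCtrl and 160, 170 and 160 CPM in shPRSS22. Every knockdown library was above every control library. The ITGA5 means were 142.9 ± 2.62 and 163.4 ± 5.62 CPM, a log2 fold change of 0.19 (SE 0.036, 95% interval 0.12 to 0.27).

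Of the beta chains, ITGB1 (Entrez 3688, chromosome 10 from 32900318 to 32958230), the common partner of many alpha chains including alpha-5 and alpha-v, was the most abundant member. Its shCtrl libraries held 2080, 2092 and 2165 CPM and its shPRSS22 libraries 2077, 2118 and 2136 CPM, with overlapping groups. Its log2 fold change was -0.0015 with a 95% interval from -0.07 to 0.07. ITGB5 (Entrez 3693, chromosome 3 from 124761948 to 124901418), which pairs with alpha-v only, had 167, 155 and 163 CPM in shCtrl and 126, 128 and 126 CPM in shPRSS22. All controls lay above all knockdown libraries, which lay closer together than the controls (means 161.7 ± 5.78 and 126.5 ± 1.06 CPM). The ITGB5 log2 fold change was -0.35 (SE 0.036, 95% interval -0.43 to -0.28), 1.28-fold lower.

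ITGB6 (Entrez 3694, chromosome 2 from 160099671 to 160200272), the epithelial partner of alpha-v known for activating latent TGF-beta, was barely detected. It had 11, 16 and 18 estimated counts in shCtrl and 11, 9 and 9 in shPRSS22, so the lowest control and the highest knockdown library held the same count. The fitted log2 fold change was -0.65 with a wide 95% interval, -1.36 to 0.06. ITGB6 passed the filter on low counts (0.656 CPM in at least 3 libraries) through the shCtrl group, where all 3 libraries reached it against 1 in shPRSS22, so its place among the tested genes leans on the group in which it is higher.

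At an adjusted p under 0.05, 2 of the 7 members were called higher (SPP1, ITGA5) and 2 lower (CD44, ITGB5), while ITGAV, ITGB1 and ITGB6 were not called. Of all genes tested 39.1% were called, 19.9% higher and 19.3% lower. In CPM, 5 members had groups without overlap (all but ITGAV and ITGB1), as had 48.6% of all genes tested. Because the members were chosen on this comparison, nothing is read from these counts. The median absolute log2 fold change of all genes was 0.14, above the values of ITGAV and ITGB1 and below the others. The authors' deposited table gives log2 fold changes of 1.71 for SPP1, -0.29 for CD44, 0.20 for ITGA5 and -0.35 for ITGB5.

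**Figure D1:**
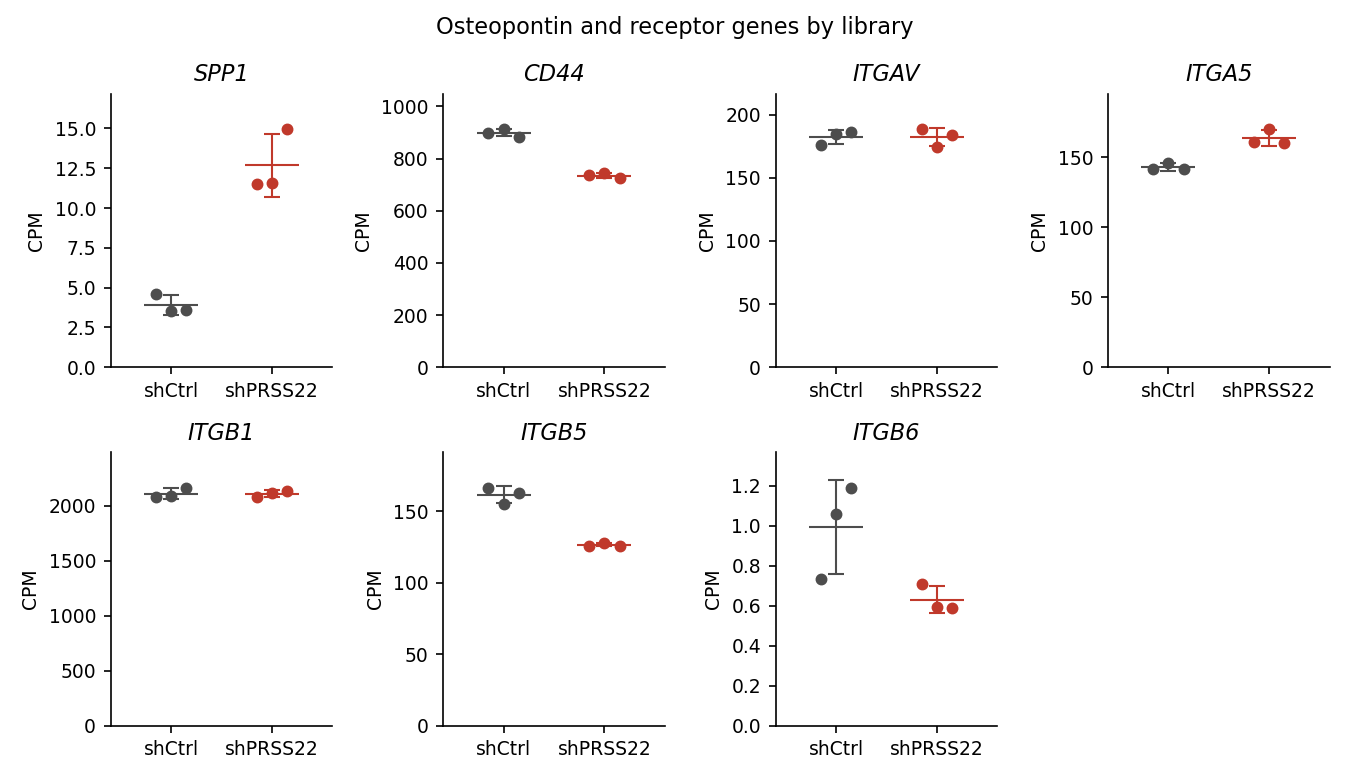
CPM of each gene by library (y axes from 0, a separate scale per gene), with points for the 3 shCtrl (grey) and 3 shPRSS22 (red) libraries and bars for mean and SD. SPP1 runs from 3.50 to 4.61 CPM in shCtrl and from 11.5 to 14.96 CPM in shPRSS22, while ITGAV and ITGB1 overlap between groups.

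Levels of different genes were compared per transcript length, with the authors' deposited TPM values. In shCtrl the order of mean TPM was ITGB1 (981 ± 27.3), CD44 (301.5 ± 2.57), ITGB5 (84.0 ± 3.99), ITGA5 (61.7 ± 1.83), ITGAV (44.2 ± 1.70), SPP1 (5.03 ± 0.797) and ITGB6 (0.377 ± 0.0777), and no neighbours in that order overlapped. In shPRSS22 ITGB1 (987 ± 21.4), CD44 (245.3 ± 5.44), ITGAV (44.6 ± 2.58), SPP1 (16.4 ± 2.66) and ITGB6 (0.243 ± 0.0416) kept their places. ITGA5, at 70.8 ± 3.09 TPM, and ITGB5, at 66.8 ± 0.956 TPM, changed places there, with ranges of 68.39 to 74.31 and 65.83 to 67.74 TPM that came close without overlapping. Within libraries, the ratio of ITGA5 to ITGB5 TPM was 0.693, 0.803 and 0.715 in shCtrl and 1.05, 1.13 and 1.01 in shPRSS22. CD44 transcripts outnumbered those of SPP1 in both groups, with a ratio of TPM of 60.9 ± 9.17 in shCtrl and 15.2 ± 2.35 in shPRSS22.

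**Figure D2:**
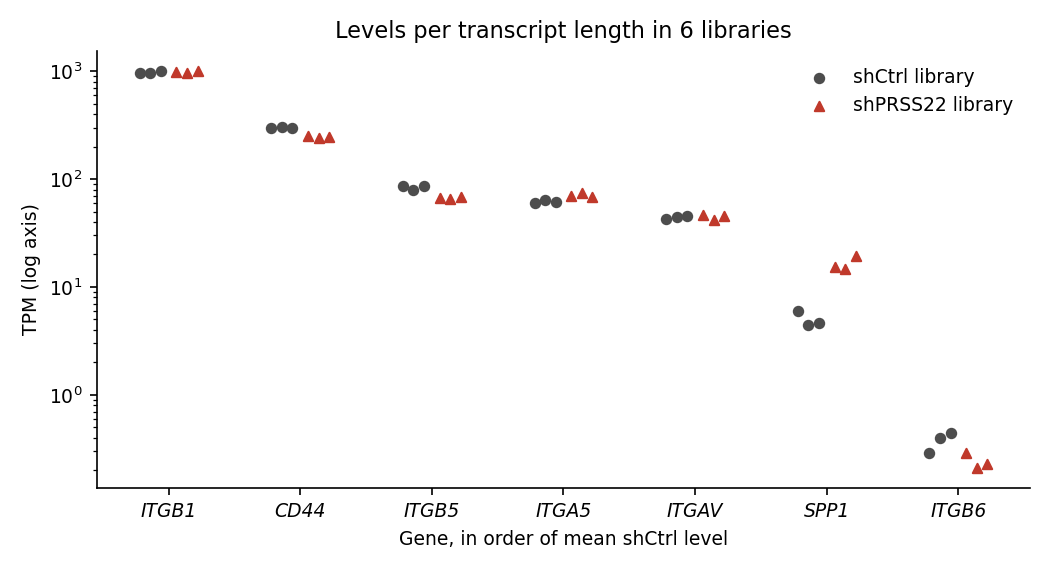
Deposited TPM on a log axis for each gene, in the order of the shCtrl mean, with 1 point per library (grey circles shCtrl, red triangles shPRSS22). ITGB1 stays near 981 to 987 TPM on average in both groups, and SPP1 lies at 4.47 to 5.94 TPM in shCtrl and 14.6 to 19.5 TPM in shPRSS22.

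Beside ITGB1, the beta chains that pair with alpha-v are ITGB3, ITGB5, ITGB6 and ITGB8. ITGB5 made up 94.4% ± 0.198 of their summed TPM in shCtrl and 94.6% ± 0.289 in shPRSS22 (SD, n = 3). ITGB8 followed with 4.48% ± 0.243 and 4.09% ± 0.221, ITGB3 with 0.665% ± 0.152 and 0.934% ± 0.0958, and ITGB6 with 0.425% ± 0.0948 and 0.345% ± 0.0588. The ITGB3 share was 0.839%, 0.593% and 0.562% in the shCtrl libraries and 0.867%, 0.893% and 1.04% in the shPRSS22 libraries, without overlap. The TPM of ITGB3 itself did overlap, at 0.50 to 0.77 in shCtrl and 0.61 to 0.75 in shPRSS22. The ITGB5 TPM in the sum was lower in shPRSS22 (66.8 against 84.0 on average). Since ITGB5 makes up nearly all of the sum, its share could move little.

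A further 6 chains belong to integrins that bind RGD or the neighbouring SVVYGLR stretch of osteopontin, and 4 of these 6 could be tested. ITGB8, an activator of latent TGF-beta with alpha-v, fell from 19.9 ± 0.333 to 14.4 ± 1.01 CPM (log2 fold change -0.47, SE 0.080, edgeR adjusted p = 1.86e-05). ITGA9 (-0.16), ITGB3 (0.15) and ITGA2B (-0.05) did not pass the threshold, each at a mean of 1.21 to 3.41 CPM. ITGA4 and ITGA8 were too low to test. Among the 15 remaining integrin chains, which serve laminin, collagen, E-cadherin or leukocyte ligands, 2 of 9 tested rose and 1 fell. The share called was 33.3%, against 39.1% of all genes tested. ITGA1, a collagen receptor chain, had a log2 fold change of 0.31 (adjusted p = 0.0275), ITGAE, the E-cadherin receptor chain, 0.30 (adjusted p = 0.0452) and ITGB4, the hemidesmosome chain, -0.27 (adjusted p = 0.0132).

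These 3 calls were not firm in edgeR's test when libraries were left out. The ITGA1 adjusted p was 0.0622 and 0.119 without shCtrl replicates 1 and 2, and 0.0967 and 0.0600 without shPRSS22 replicates 2 and 3. That of ITGAE was 0.0986, 0.131 and 0.0567 without shCtrl replicates 1, 2 and 3 and 0.267 without shPRSS22 replicate 3, where its log2 fold change was 0.19. The ITGB4 adjusted p was 0.0579 without shPRSS22 replicate 2, at a log2 fold change of -0.30. Over the whole integrin family of 26 chains, 18 were tested, with 3 higher and 3 lower, 33.3% called against 39.1% of all genes. The family's median log2 fold change was -0.0063, against -0.0056 for all genes tested. Without the 5 members, 13 tested chains held 2 higher and 2 lower, 30.8% called against 39.1% of all genes.

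**Figure D3:**
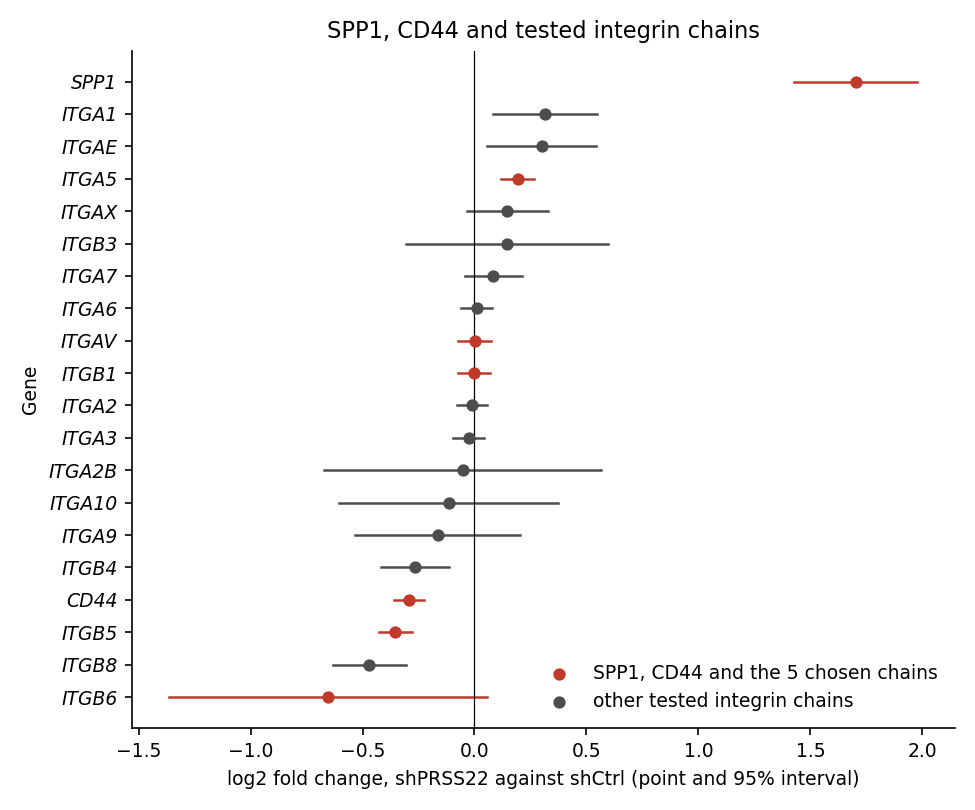
Log2 fold change (x axis, shPRSS22 against shCtrl) with its 95% interval for SPP1, CD44 and the 18 tested integrin chains, members in red. SPP1 lies at 1.70, apart from all chains, which run from -0.65 (ITGB6) to 0.31 (ITGA1).

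Other ligands that present RGD to these integrins moved both ways. Of 25 genes sought, 22 were in the table and 16 were tested, of which 2 rose and 3 fell, with a median of 0.0094. That is 31.2% called, against 39.1% of all genes tested. CCN2, a matricellular protein, rose from 19.98 ± 0.635 to 29.3 ± 0.597 CPM (log2 fold change 0.55, edgeR adjusted p = 3.87e-08). Nephronectin, NPNT, a basement membrane ligand of alpha-8 beta-1, fell from 63.3 ± 0.446 to 45.1 ± 5.21 CPM (-0.49). TGFB1, whose latent form carries an RGD motif read by beta-6 and beta-8 integrins, fell from 72.3 ± 1.71 to 57.0 ± 0.754 CPM (-0.34, adjusted p = 2.82e-07).

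Fibronectin, FN1 (0.11), and the metalloprotease ADAM15 (-0.13), which carries an RGD motif, passed by small amounts. The FN1 adjusted p was 0.108, 0.0628 and 0.0674 without shCtrl replicates 1 and 2 and shPRSS22 replicate 3, and that of ADAM15 was 0.0839 without shCtrl replicate 2. Vitronectin, VTN, had 0 counts in every library. Of the 4 relatives of osteopontin encoded beside it, the SIBLING glycoproteins, DMP1 alone was listed, with 1 to 12 estimated counts per library, and was not tested.

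Most enzymes known to act on osteopontin were too low to test. Of 16 genes, 6 were tested, and thrombin (F2), MMP3, MMP7, MMP9 and MMP12, which cleave it, were among those left out. TGM1, a keratinocyte transglutaminase, rose from 1.37 ± 0.282 to 3.84 ± 0.292 CPM (log2 fold change 1.48, edgeR adjusted p = 1.03e-06). TGM2, tissue transglutaminase, which crosslinks osteopontin, fell from 72.2 ± 2.32 to 54.9 ± 2.301 CPM (-0.39, adjusted p = 4.76e-08). FAM20C, the secretory pathway kinase that phosphorylates osteopontin, had a log2 fold change of -0.17 and did not pass (adjusted p = 0.0638).

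Around CD44, of the genes of hyaluronan handling and the CD44 cytoskeletal link, 10 of 24 tested were lower and 3 higher. Their median was -0.08, and 54.2% were called against 39.1% of all genes tested. CEMIP, which drives hyaluronan breakdown, fell from 49.8 ± 5.99 to 25.9 ± 2.53 CPM (log2 fold change -0.95, edgeR adjusted p = 1.00e-06). Versican, VCAN, a proteoglycan that binds hyaluronan and CD44, fell from 57.4 ± 2.43 to 32.8 ± 1.598 CPM (-0.81, adjusted p = 1.92e-13). Of those named for their role after their values were seen, the hyaluronidase HYAL2 (-0.45), the related CEMIP2 (-0.31), the synthase HAS3 (-0.24) and the CD44 sheddase ADAM10 (-0.14) also fell.

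Among the 3 that rose were ADAM17, another sheddase, from 118.7 ± 1.48 to 148.5 ± 7.55 CPM (0.32), and ESRP1, the epithelial splicing factor that favours CD44 variant exons, from 464 ± 5.91 to 530 ± 2.35 CPM (0.19). The splicing factor SRSF1 (0.10) rose too, with an adjusted p of 0.1199 without shCtrl replicate 3 and 0.0637 without shPRSS22 replicate 1 (edgeR). HAS1 had 0 counts in every library. The linkers EZR (0.08) and RDX (0.07) did not pass. Among the 10 lower calls, MSN (-0.10) was lost in 4 and NF2 (-0.12) in 5 of 11 alternatives, NF2 with a log2 fold change of -0.08 without shCtrl replicate 2.

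Proteins that activate integrins or form adhesions behind them were called in 24 of 38 tested genes, 63.2% against 39.1% of all genes tested. Of these calls 16 were higher and 8 lower, and the median log2 fold change of the list was 0.10. The kinases PTK2B (0.39) and SRC (0.38) and the adaptor KANK1 (0.38) rose most, SRC from 33.2 ± 0.718 to 43.1 ± 1.12 CPM (edgeR adjusted p = 1.85e-06). The 3 that fell most were PARVA, from 78.9 ± 4.73 to 55.2 ± 2.94 CPM (-0.51, adjusted p = 6.84e-10), LIMS1 (-0.46) and KANK2 (-0.25). PARVA and LIMS1 encode parvin and PINCH, which form a complex with ILK at the beta chain tail. ILK (0.18, adjusted p = 0.00619) and RSU1 (0.20, adjusted p = 9.56e-04), a further protein of that complex, rose, so its genes moved both ways. These 2 were named after their values were seen, and ILK had 0.12 (edgeR adjusted p = 0.0764) without shPRSS22 replicate 2. Among the 8 lower calls, ACTN4 (-0.08) and TNS4 (-0.17) were lost in 7 of 11 alternatives each.

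Further adhesion genes were singled out after their values were seen. The scaffold paxillin, PXN, rose from 258.5 to 328.9 CPM on average (0.35), and its partner GIT1 rose by 0.34. The talins, which switch integrins on, split: TLN1 fell (-0.15) and TLN2 rose (0.31). Focal adhesion kinase, PTK2 (0.07), and vinculin, VCL (-0.08), did not pass.

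**Figure D4:**
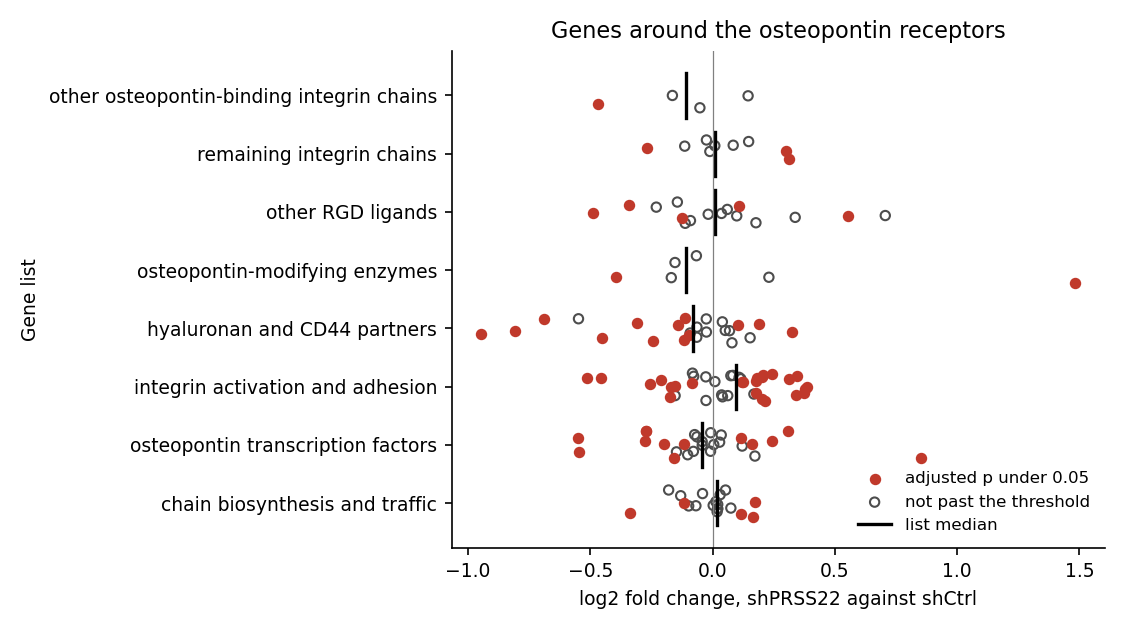
Log2 fold change of every tested gene (points, red where the adjusted p is under 0.05) by list, with a vertical bar at each list's median. Medians lie between -0.11 and 0.10, and TGM1 at 1.48 and CEMIP at -0.95 are the ends of the range.

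Transcription factors described as acting on the SPP1 promoter in various cells were called in 13 of 27 tested genes, 5 higher and 8 lower. That is 48.1%, against 39.1% of all genes tested, with a list median of -0.04. The core motif of the RUNX factors stands in the SPP1 sequence, and whether they act on SPP1 in these cells was not tested. RUNX1 fell from 99.1 ± 5.29 to 67.9 ± 3.96 CPM (log2 fold change -0.54, edgeR adjusted p = 5.26e-11) and RUNX2, the osteoblast factor, from 10.6 ± 0.580 to 7.25 ± 0.633 CPM (-0.55, adjusted p = 1.52e-04). RUNX3 (-0.01) and their partner CBFB (-0.04) did not pass. FOSL1, an AP-1 subunit, rose from 36.7 ± 0.436 to 66.2 ± 5.59 CPM (0.85), ETS1 rose by 0.31 and USF1 by 0.24. The USF1 adjusted p was 0.0636 without shCtrl replicate 1 and 0.102 without shPRSS22 replicate 3, where its log2 fold change was 0.16. TCF7L2, a Wnt pathway factor named here after its values were seen, fell (-0.27). LEF1 had 0 counts in every library.

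Genes of chain folding, proprotein cleavage and integrin recycling were called in 5 of 19 tested genes, 26.3% against 39.1% of all genes tested. Of these calls 3 were higher and 2 lower, and the list median was 0.02. SNX27 (0.17) and RAB11FIP1 (0.16), of endosomal recycling, rose. The endocytic adaptor NUMB (0.12) rose, while the proprotein convertases PCSK6 (-0.34) and FURIN (-0.12) fell. The last 3 lost their calls in edgeR when libraries were left out. The adjusted p of NUMB was 0.137 and 0.177 without shCtrl replicates 1 and 2 and 0.0907 and 0.109 without shPRSS22 replicates 1 and 2. PCSK6 had 0.0936 without shCtrl replicate 1 and 0.0817 without shPRSS22 replicate 3. FURIN had 0.0585 and 0.0563 without shCtrl replicates 1 and 3 and 0.106 without shPRSS22 replicate 1. The chaperones CANX (0.02) and CALR (0.0025), which fold integrin chains, did not pass.

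Of the 10 protein-coding neighbours of SPP1 on chromosome 4, 5 on each side, 6 were listed and 4 tested, all on the side after SPP1. ABCG2, a drug efflux transporter, stood at 3.49 ± 0.242 CPM in shCtrl and rose to 6.03 ± 0.457 CPM (log2 fold change 0.79, edgeR adjusted p = 7.15e-05), with 50 to 57 estimated counts per shCtrl library and 84 to 98 per shPRSS22 library. PPM1K, a mitochondrial phosphatase, had 0.23 (adjusted p = 0.0167), and HERC6, an interferon-induced ligase, fell by 0.41 on the log2 scale. PKD2, the gene next to SPP1, had -0.09 and did not pass. Of the 4 tested, 2 were thus called higher and 1 lower, 75% against 39.1% of all genes tested. With so few genes, nothing is read from this share. The PPM1K call did not hold in edgeR when single libraries were left out, with adjusted p = 0.0638 and 0.0993 without shCtrl replicates 1 and 3 and 0.0586 without shPRSS22 replicate 3. On the other side DMP1 and SPARCL1 were too low to test.

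The 5 genes at a mean of at least 5 CPM whose profile over the 6 libraries lay closest to SPP1 were INHBE, TRIM16L, GRAMD1B, OSGIN1 and FSD1. The measure was the Euclidean distance between log2(CPM + 0.5) profiles after subtracting each gene's mean. It was 0.325 for INHBE, an inhibin beta subunit, and 0.529 for FSD1. INHBE had 4.81, 4.75 and 4.295 CPM in shCtrl and 13.4, 12.8 and 14.8 CPM in shPRSS22, with its highest value, as for SPP1, in shPRSS22 replicate 3. They were selected for this likeness, so their differences between groups are no separate result. TRIM16L resembles TRIM16, and reads may have been divided between them.

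**Figure D5:**
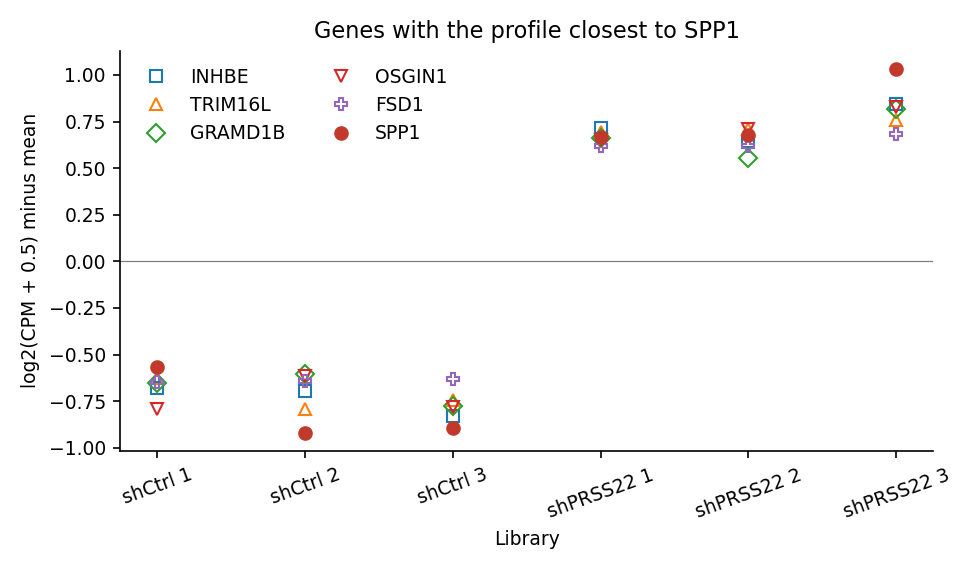
Log2(CPM + 0.5) minus the gene's mean over the 6 libraries (y axis) for SPP1 (filled circles) and the 5 nearest genes (open symbols), by library. All 6 genes lie below 0 in shCtrl and above 0 in shPRSS22.

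Most markers of other cells that make osteopontin or line a tumour were near 0, the exceptions being CD68, COL1A1 and RUNX2. Of 9 listed macrophage markers, 7 were under 0.5 CPM on average. PTPRC, TYROBP and MRC1 had 0 counts in shCtrl and at most 1 per library in shPRSS22. CSF1R, tested beside CD68, had 14 to 18 counts in shCtrl and 19 to 21 in shPRSS22 (log2 fold change 0.35, edgeR adjusted p = 0.346). LYZ had 2 to 3 counts in shCtrl and 4 to 9 in shPRSS22, so the groups of CSF1R and LYZ did not overlap. AIF1 had 0 counts in shCtrl and 0 to 2 in shPRSS22, CD14 0 to 4 and 0 to 6, and FCER1G 0 to 2 and 0. The summed macrophage level was 15.5 to 17.1 CPM in shCtrl and 17.4 to 20.8 CPM in shPRSS22, most of it CD68, a lysosomal protein that other cells also express, at 14.8 and 17.6 CPM on average. CD68 rose in the knockdown, like SPP1, with overlapping groups (log2 fold change 0.24, edgeR adjusted p = 0.0271), and its part in the SPP1 difference was not tested. The osteoblast sum was 35.8 to 42.3 CPM in shCtrl and 36.5 to 41.7 CPM in shPRSS22, carried by COL1A1 and RUNX2, while the defining BGLAP and SP7 had 0 to 2 counts per library. Fibroblast and endothelial markers summed to 1.26 to 2.27 CPM in shCtrl and 2.29 to 3.28 CPM in shPRSS22, with 9 of 10 under 0.5 CPM and CDH5 at 0 in every library.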

How the data were processed

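Poly(A)-selected RNA of 6 HCT116 libraries was compared. The authors deposited 1 table with estimated counts, TPM, FPKM, a normalised signal and their own log2 fold changes, p-values and q-values, as read from the file headers (deposited by gene). RSEM 1.3.1, HISAT2 2.2.1, Bowtie2 2.3.4.3, FastQC 0.12.1, DESeq2 1.4.5 and R 4.3.1 are named with build GRCh38.p13, per the submitters' processing notes, without roles. No strand marking is described, so reads of overlapping genes on the opposite strand cannot be told apart. In GENCODE release 29 such genes overlap every member but SPP1 and ITGB6. The 7 members had whole-number counts in every library.

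Estimated counts were rounded and tested across all genes with edgeR 4.0.16 (R 4.3.3, TMM, filterByExpr, robust glmQLFit and glmQLFTest, two-sided), which kept 13104 genes. P-values were adjusted by Benjamini-Hochberg over all of them, with a threshold of 0.05. The SE is the log2 fold change divided by the square root of F, and the 95% interval uses edgeR's degrees of freedom. On simulated counts, 98 of 100 genes changed by 1 on the log2 scale and 87 of 99 changed by 0.5 were recovered among 13029 genes. There 10 unchanged genes were called. Every simulated gene had the same common spread (coefficient of variation 2.97%), so recovery for genes with a larger spread is not shown. TPM served for levels between genes, FPKM for an alternative of the beta chain shares, and the normalised signal, their group averages and the authors' p-values and q-values were not used.

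Members, lists and tests were chosen with earlier results of these data known. All members, PRSS22, up to 3 rises and 3 falls per list (mean CPM of at least 1), all genes of lists with 5 or fewer tested, SPP1 neighbours (read as protein-coding) and the 5 nearest profiles were named, except for some items that are not reported here. Whether replicates came from separate cultures is not given in the sources used here, so the spread behind each p-value is that of these libraries and may be technical. Promoters came from RefSeq on GRCh38.p14, and the motifs were chosen after the values were seen. Protein sequences were not used here.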

Additional observations from a re-analysis of the deposited data

How the results depend on the processing

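The results were recomputed with DESeq2 size factors, DESeq2's Wald test (DESeq2 1.42.0), no filter on low counts, a mean CPM of at least 1, the replicate block and each library left out in turn. Calls among the members stayed at 2 higher and 2 lower in all of these. Because the members were chosen on this comparison, nothing is read from that either. The SPP1 log2 fold change lay between 1.57 and 1.84. ITGB6 was not tested at a mean CPM of at least 1. Of the SPP1 neighbours, 4 of which were tested in the main fit, 1 instead of 2 was called higher with DESeq2's Wald test. When a library was left out, 1 to 2 were called higher. Over all genes, calls ranged from 1886 (DESeq2) to 2782 (replicate block) higher and from 1726 to 2747 lower, each within 1.5 times the main counts of 2603 and 2523. Scaling moved the median of all genes by 0.0020 or less on the log2 scale. DESeq2's adjusted p was above the threshold for ITGA1 (0.125), ITGAE (0.166), FN1 (0.0966), NUMB (0.112), PCSK6 (0.0835), FURIN (0.0807), PPM1K (0.0835), MSN (0.0540), NF2 (0.155), ACTN4 (0.0529) and TNS4 (0.175). The cause was not tested. Same-numbered libraries correlated at 0.036, 0.050 and 0.10 in their deviations from group means, and different-numbered ones at -0.11 to 0.062. The numbers were not taken as pairs, though these values do not settle whether they are. With the replicate block the SPP1 log2 fold change was 1.70. Of the pathway list genes, 35 were then higher and 37 lower, against 32 and 34 of 143 tested in the main fit. There were 28 and 28 with DESeq2's Wald test and 28 and 26 without shCtrl replicate 1. In the main fit 46.2% of the 143 were called, against 39.1% of all genes tested. Depth limits what can be said of ITGB6, at 9 to 18 counts.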
